A study of Rattus norvegicus with 6 samples.

Results

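Genes of the Wnt pathway that act at the cell surface were compared between beta cell-enriched preparations of young adult rats and of pups. The group comprised the Wnt ligands, the Frizzled receptors (Fzd) and co-receptors, the secreted antagonists, and Axin2 and Lgr5. Members were chosen by gene symbol alone, and 42 of the 29214 probe sets of the array matched, each for a different gene among the 14506 genes tested. By role they were 17 ligands, 8 Frizzled receptors, 5 co-receptors, 10 secreted antagonists and 2 feedback genes. Symbols of the family outside these 42 are not analysed here.

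All preparations came from male Wistar rats, and total RNA of each was hybridised to 1 array. The immature group held 3 preparations from suckling animals of postnatal day 20, and the mature group 3 preparations from adults aged about 2 months, at 250 to 280 g. No genetic change or treatment is given for either age. Cells were sorted by light scatter and autofluorescence and are called primary cultured by the series, with no culture time. Each preparation is labelled a biological replicate, without the number of animals behind it. The p-values thus measure the spread between these preparations. Values are log2 signals after the authors' normalization, so a difference of 1 is a 2-fold change, and array medians lay between 6.35 and 6.39. There were no detection calls, and a signal near the first quartile (4.91 to 4.94) is not shown to be above background. Signals of different probe sets depend on their probes and do not rank genes by abundance.

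Wnt proteins are secreted lipid-modified ligands that bind Frizzled receptors on the cell surface. Together with the co-receptors Lrp5 and Lrp6 they stabilise beta-catenin, which enters the nucleus and activates genes with TCF/LEF factors. Other branches run through Ror1, Ror2 and Ryk and act on cell polarity and calcium. Secreted antagonists block the pathway outside the cell, Sfrp proteins, Frzb and Wif1 by binding Wnts and Dkk proteins by binding the co-receptors. In the pancreas Wnt signals act in organ growth, and polarity-type Wnt signals have been linked to islet maturation.

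The labelled cell type was checked against marker lists. The 7 measured beta cell markers had a mean log2 signal of 11.74 to 12.21 over the adult and 10.56 to 11.18 over the day 20 arrays. Acinar markers had a mean of 13.46 to 13.68 over the 6 arrays, near the top of the scale, so exocrine RNA was present at both ages. The mean of 12 endocrine genes of the secretory pathway was 10.84 ± 0.35 in adult and 9.92 ± 0.51 at day 20 (SD, n = 3). It was highest in adult replicate 1 (11.24) and lowest in day 20 replicate 2 (9.39). Delta and PP cell, endothelial, fibroblast, duct and cell division markers had lower means in every adult array than in every day 20 array, with values given beside the members that fell. In bulk RNA fewer cells of a type and less RNA per cell cannot be told apart.

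In adult preparations the secreted antagonists Frzb and Wif1, the ligand Wnt4, the receptors Fzd3 and Fzd4 and the co-receptor Ror1 were higher than at day 20, by 1.38- to 1.88-fold. The antagonist Sfrp4, the receptor Fzd9 and the ligand Wnt5b were lower, by 1.21- to 1.61-fold. The other 33 members did not pass the test, among them both Lrp co-receptors and both feedback genes. Thus 9 of 42 members passed at an adjusted p under 0.05 (21.4%), against 22.7% of all genes, so the share of called members was near the background. Higher in adult were 14.3% of members against 11.8% of genes, and lower 7.14% against 10.9%. The median difference was -0.01 over the members and 0.01 over all genes. The arrays of the 2 ages did not overlap for 10 members (23.8%), against 39.6% of all genes (20.9% higher and 18.7% lower). Of the 9 calls, that of Frzb held whichever of the 6 arrays was left out, a share not counted over all called genes. None held with the endocrine mean as a covariate. That mean did not overlap between the ages, so a fit with it cannot separate age from the mean. In that fit of limma 4 of 42 members had an unadjusted p under 0.05, against 19.9% of all genes, and 5.33% of all genes passed after adjustment (2.12% higher and 3.21% lower).

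**Figure D1:**
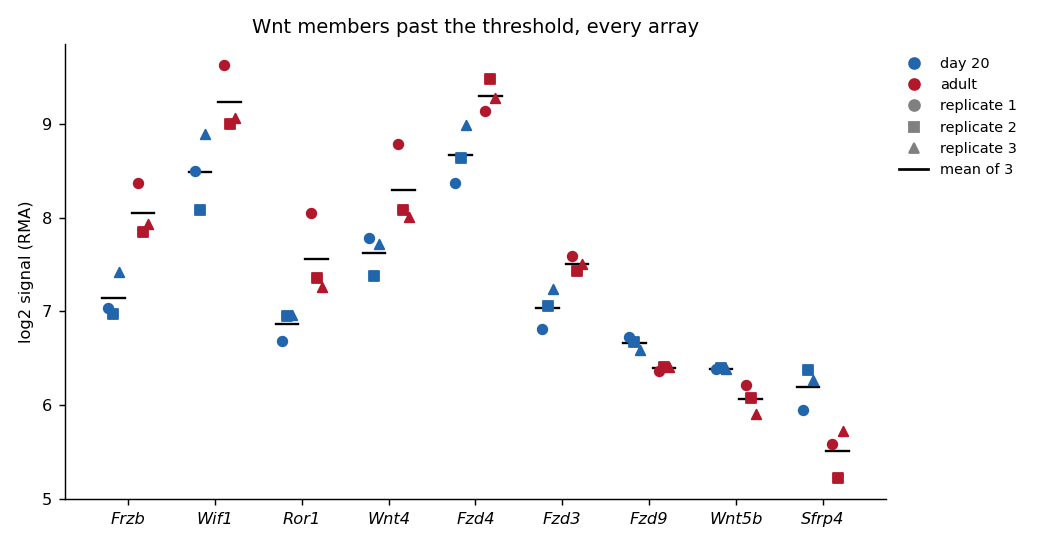
Log2 signals after RMA (y axis) of the 9 members past the threshold, for the 3 day 20 arrays (blue) and the 3 adult arrays (red), with the replicate shown by the marker and the mean of 3 by a bar. The ages do not overlap for any of the 9, though the highest day 20 array of Wif1 (8.89) lies close to its lowest adult array (9.0).

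The promoters of Frzb, Wif1 and Ror1 are shown because these had the largest differences among called members with a sequence in the RefSeq table. That of Axin2 was added after its values were seen, as the textbook target of beta-catenin. Of the 42 members 28 matched a promoter in the RefSeq table of build GRCr8. Each window runs from 250 bases before to 50 after the gene's start, 5′ to 3′ on the gene's strand. It was searched on both strands for the TCF/LEF core, spelled CTTTGAA or CTTTGAT, which do not overlap each other, and capitals mark a match. The windows are chr3:85772047-85772346 (minus strand) for Frzb, chr7:58433329-58433628 (plus) for Wif1, chr5:119859494-119859793 (plus) for Ror1 and chr10:94398535-94398834 (plus) for Axin2.
Frzb: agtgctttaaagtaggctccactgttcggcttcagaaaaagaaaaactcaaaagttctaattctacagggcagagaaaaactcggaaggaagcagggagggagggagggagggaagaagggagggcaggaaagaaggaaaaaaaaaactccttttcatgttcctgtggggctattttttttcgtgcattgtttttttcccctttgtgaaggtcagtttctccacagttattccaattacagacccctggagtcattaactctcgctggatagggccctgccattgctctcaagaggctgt
Wif1: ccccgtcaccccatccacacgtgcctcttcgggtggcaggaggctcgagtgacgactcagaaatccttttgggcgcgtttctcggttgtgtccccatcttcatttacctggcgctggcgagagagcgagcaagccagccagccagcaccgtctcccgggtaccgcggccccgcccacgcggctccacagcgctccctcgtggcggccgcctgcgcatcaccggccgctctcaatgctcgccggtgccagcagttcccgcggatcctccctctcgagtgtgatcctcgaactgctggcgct
Ror1: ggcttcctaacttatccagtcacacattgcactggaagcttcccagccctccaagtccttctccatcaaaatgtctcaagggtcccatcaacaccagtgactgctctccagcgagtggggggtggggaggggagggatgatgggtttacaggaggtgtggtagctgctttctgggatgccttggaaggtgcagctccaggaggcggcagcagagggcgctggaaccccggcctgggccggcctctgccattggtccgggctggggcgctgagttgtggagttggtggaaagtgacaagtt
Axin2: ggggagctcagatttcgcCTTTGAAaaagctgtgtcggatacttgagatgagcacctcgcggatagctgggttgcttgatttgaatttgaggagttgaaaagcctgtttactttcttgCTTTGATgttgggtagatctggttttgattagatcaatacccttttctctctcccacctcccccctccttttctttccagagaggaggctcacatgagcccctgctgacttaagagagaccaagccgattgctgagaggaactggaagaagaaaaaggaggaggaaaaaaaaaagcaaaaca

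The Axin2 window held 2 matches, CTTTGAA starting 232 bases and CTTTGAT starting 132 bases before the start. Windows of Frzb, Wif1 and Ror1 held 0, which says only that these letters are not in these windows. Over the 28 member promoters 3 held a match (10.7%), those of Axin2, Dkk1 and Wnt8a, against 8.73% of all 33469 promoters of the same length. None of these 3 genes passed the test, and the 6 called members with a sequence held 0 matches. The windows differed in composition, with 67% G and C and 32 CpG in that of Wif1 against 45.3% and 4 CpG in that of Frzb. Median G and C content was 65.5% over the member promoters and 51.7% over all promoters.

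Among the 17 ligands Wnt4 rose and Wnt5b fell (11.8% called, against 22.7% of all genes). Wnt4 (probe set 10873021), a ligand that acts mainly outside the beta-catenin branch and is known from kidney and gonad development, read 8.78, 8.08 and 8.01 in adult replicates 1 to 3 and 7.78, 7.38 and 7.72 at day 20. All adult arrays lay above all day 20 arrays, and adult replicate 1 stood 0.69 above the next adult array. The adult mean of 8.29 ± 0.42 exceeded the day 20 mean of 7.63 ± 0.22 by 1.58-fold (SD, n = 3, adjusted p = 0.043). Adult replicate 1 and all 3 day 20 arrays were each needed for the call (adjusted p up to 0.14 without one of them), and without adult replicate 1 the log2 difference went from 0.66 to 0.42.

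Wnt5b (probe set 10865094), a ligand of polarity-type signalling and a close relative of Wnt5a, read 6.21, 6.08 and 5.91 in adult and 6.38, 6.40 and 6.39 at day 20. The day 20 arrays were nearly alike and lay above all adult arrays. The log2 difference was -0.32 (95% interval -0.54 to -0.10, adjusted p = 0.044). Every array but adult replicate 1 was needed for this call (adjusted p up to 0.15 without one of them), which was also lost after a second quantile normalization.

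The other 15 ligands did not pass, with adjusted p from 0.18 and log2 differences of -0.12 to 0.20. Wnt6 read 7.09, 7.12 and 7.21 in adult against 7.08, 6.83 and 6.90 at day 20, a difference of 0.20 with groups that did not overlap, by a margin of 0.0050 (95% interval -0.02 to 0.42, adjusted p = 0.18). Wnt9a read 6.88, 6.99 and 7.07 in adult against 7.35, 6.83 and 7.0 at day 20, and Wnt9b 7.12, 7.14 and 7.23 against 7.36, 7.13 and 7.02. Both had overlapping ages and intervals of -0.38 to 0.22 and -0.24 to 0.23. The 12 remaining ligands, Wnt5a among them, had means under 7 at both ages, from 4.87 to 6.77. In the RefSeq gene order 4 pairs of measured ligands are direct neighbours, Wnt3a with Wnt9a, Wnt9b with Wnt3, Wnt10b with Wnt1, and Wnt6 with Wnt10a, and no gene of these pairs passed.

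Of the 8 Frizzled receptors 2 rose, 1 fell and 5 did not pass (37.5% called, against 22.7% of all genes). With so few genes in a role, these shares were not tested. Fzd4 (probe set 10708535), the receptor of Wnts and of Norrin that is best known from vessels, read 9.14, 9.48 and 9.27 in adult and 8.37, 8.64 and 8.99 at day 20. The ages did not overlap, and adult replicate 1 was the lowest of the adult arrays. Means of 9.30 ± 0.17 in adult and 8.67 ± 0.31 at day 20 differed by 1.55-fold (n = 3, adjusted p = 0.022). The call rested on adult replicates 2 and 3 and day 20 replicates 1 and 2, with an adjusted p of up to 0.072 when one of them was left out.

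Fzd3 (probe set 10940576), which acts in axon guidance and planar polarity, read 7.59, 7.43 and 7.50 in adult and 6.81, 7.06 and 7.24 at day 20. Adult arrays were tightly grouped above a wider day 20 group. The adult mean was 7.51 ± 0.08 and the day 20 mean 7.04 ± 0.22, a 1.38-fold difference (n = 3, adjusted p = 0.021). Leaving out adult replicate 1, adult replicate 3, or either of day 20 replicates 1 and 2 raised the adjusted p above the threshold, to at most 0.062.

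Fzd9 (probe set 10757698) read 6.36, 6.41 and 6.41 in adult and 6.73, 6.67 and 6.59 at day 20, without overlap. The log2 difference was -0.28 (95% interval -0.46 to -0.09, adjusted p = 0.043). This was the least stable of the 9 calls, lost when any 1 array was left out (adjusted p of 0.053 to 0.11), after median centring or a second quantile normalization, and with trend and robust variances.

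Fzd5, Fzd6 and Fzd8 had means above 7 at both ages and did not pass. Fzd5 read 7.58, 8.15 and 7.66 in adult against 8.11, 8.05 and 7.78 at day 20, Fzd6 8.21, 7.80 and 7.74 against 7.75, 7.78 and 7.83. Fzd8 read 8.35, 8.33 and 8.27 against 8.19, 8.35 and 8.48. The ages overlapped for each of these, with intervals of -0.54 to 0.17, -0.16 to 0.42 and -0.25 to 0.19. Fzd1 (5.33, 5.36 and 5.32 in adult against 5.56, 5.57 and 5.34) and Fzd2 (5.92, 6.20 and 6.20 against 6.67, 6.29 and 6.14) had lower signals and did not pass (adjusted p = 0.28 and 0.25).

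Of the 5 co-receptors Ror1 rose and Lrp5, Lrp6, Ryk and Ror2 did not pass (20% called, against 22.7% of all genes). Ror1 (probe set 10870190), a receptor tyrosine kinase-like receptor of Wnt5a, read 8.05, 7.35 and 7.26 in adult and 6.68, 6.95 and 6.96 at day 20. The ages did not overlap, and adult replicate 1 stood above the rest. The adult mean of 7.55 ± 0.43 was 1.61-fold above the day 20 mean of 6.86 ± 0.16 (n = 3, adjusted p = 0.033). With any 1 day 20 array left out the call was lost (adjusted p up to 0.12), and without adult replicate 1 the log2 difference went from 0.69 to 0.44.

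Lrp5, the co-receptor that carries the beta-catenin signal with Lrp6, read 9.87, 10.02 and 10.04 in adult against 10.07, 9.92 and 9.77 at day 20. Lrp6 read 9.24, 8.98 and 9.01 against 9.08, 9.04 and 8.87. The ages overlapped for both, and the 95% intervals of the log2 difference were -0.18 to 0.29 for Lrp5 and -0.16 to 0.32 for Lrp6. Ryk, a Wnt receptor with an inactive kinase domain, read 9.48, 9.50 and 9.50 against 9.21, 9.49 and 9.61 (interval -0.20 to 0.30). Ror2, the relative of Ror1, had a difference of -0.17 (interval -0.39 to 0.06, adjusted p = 0.29). Ror1 and Ror2 thus had differences of opposite sign, which was not tested as a contrast.

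**Figure D2:**
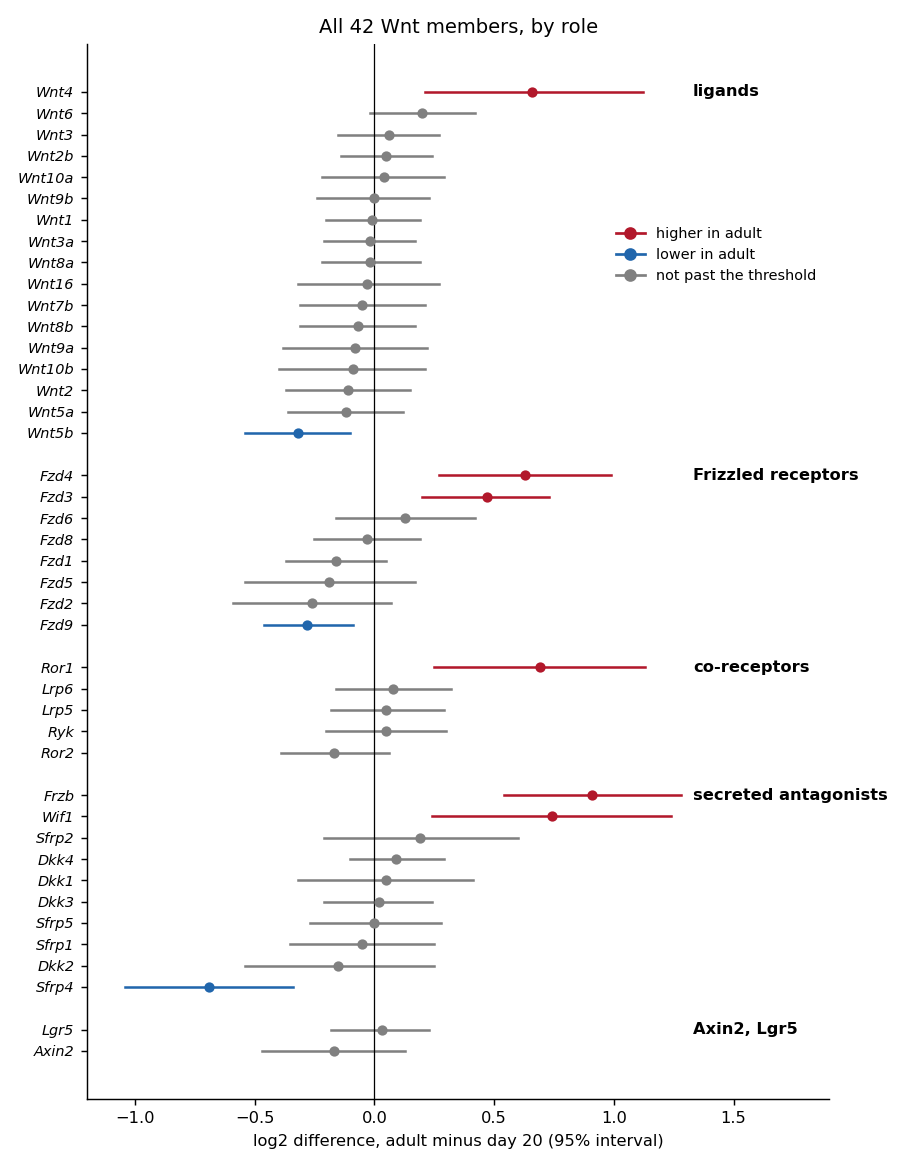
Log2 difference, adult minus day 20, with its 95% interval from limma (x axis) for all 42 members, sorted within role. Red marks the 6 members higher in adult, blue the 3 lower and grey the 33 not past the threshold, whose intervals all lie between -0.59 and 0.60.

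The secreted antagonists held the member with the largest rise and the one with the largest fall. Of the 10 antagonists 3 passed (30%, against 22.7% of all genes). Frzb (probe set 10846740), a soluble Frizzled-related protein that binds Wnts, read 8.37, 7.85 and 7.93 in adult and 7.03, 6.97 and 7.42 at day 20. Every adult array was above every day 20 array. Means were 8.05 ± 0.28 in adult and 7.14 ± 0.24 at day 20, a 1.88-fold rise (n = 3, adjusted p = 0.0051). With any 1 array left out the adjusted p lay between 0.0036 and 0.027, and against a null of a 1.2-fold change Frzb alone of the 42 members passed (adjusted p = 0.033, against 6.43% of all genes, 3.07% higher and 3.36% lower).

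Wif1 (probe set 10895688), which binds Wnts through its WIF domain, read 9.63, 9.0 and 9.06 in adult and 8.50, 8.08 and 8.89 at day 20. Adult replicate 1 was the highest array and day 20 replicate 2 the lowest. The adult mean of 9.23 ± 0.35 stood 1.67-fold above the 8.49 ± 0.40 of day 20 (n = 3, adjusted p = 0.041). In 4 of 6 fits with an array left out the call was lost, those lacking adult replicates 1 and 3 and day 20 replicates 1 and 2 (adjusted p up to 0.13).

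Sfrp4 (probe set 10798610), a secreted Frizzled-related protein, read 5.59, 5.22 and 5.72 in adult and 5.95, 6.37 and 6.27 at day 20. All adult arrays lay below all day 20 arrays. It was 1.61-fold higher at day 20 (5.51 ± 0.26 in adult against 6.20 ± 0.22, n = 3, adjusted p = 0.013). The call was lost without day 20 replicate 2 (adjusted p = 0.051), and the gene was outside the fit when genes of low signal were removed. The other 7 antagonists, Sfrp1, Sfrp2, Sfrp5 and the 4 measured Dkk genes, did not pass. Their differences were -0.15 to 0.19, at means of 4.09 to 6.68.

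The feedback genes Axin2 and Lgr5, whose transcription is widely used as a readout of the beta-catenin branch, did not pass. Axin2 read 6.67, 6.95 and 7.18 in adult against 7.08, 7.02 and 7.21 at day 20, with overlapping ages and a log2 difference of -0.17 (95% interval -0.47 to 0.13, adjusted p = 0.42). Lgr5 read 3.85, 3.94 and 3.88 in adult against 4.0, 3.81 and 3.79 at day 20, below the first quartile at both ages (difference 0.03, 95% interval -0.18 to 0.23). For all 33 members that did not pass the 95% interval excluded a 2-fold difference. Where signals are near background the array can understate a difference.

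The endocrine mean was set beside the 6 members that rose, array by array. Of the 6, adult replicate 1 was the highest adult array for 5 (all but Fzd4) and day 20 replicate 3 the highest day 20 array for 5 (all but Wnt4). The endocrine mean was also highest in these arrays within their age (11.24 against 10.55 and 10.73 in adult, and 10.40 against 9.95 and 9.39 at day 20). Frzb and Wif1 followed the order of the endocrine mean over the 3 arrays of each age, and the other 4 did so at no more than 1 age. How many of all genes had these orders was not counted, so they are not shown to be particular to the 6 members. All 6 differences were smaller with the endocrine mean as a covariate. That of Wif1 went from 0.74 to -0.05 (95% interval -0.37 to 0.28) and that of Wnt4 from 0.66 to 0.10 (-0.41 to 0.61). Frzb kept a difference of 0.40 (0.03 to 0.78, unadjusted p = 0.038, adjusted p = 0.22), Ror1 one of 0.35 (-0.30 to 0.99) and Fzd3 one of 0.30 (-0.12 to 0.72). The difference of Fzd4 changed least, from 0.63 to 0.58 (-0.02 to 1.17, adjusted p = 0.27). Of the 12 endocrine genes 9 were themselves called higher in adult, and the mean of the 12 did not overlap between the ages. The covariate thus shares part of the age difference, and these fits cannot separate age from the endocrine mean. A change of the 12 endocrine genes within beta cells and a change in the share of endocrine cells cannot be told apart.

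**Figure D3:**
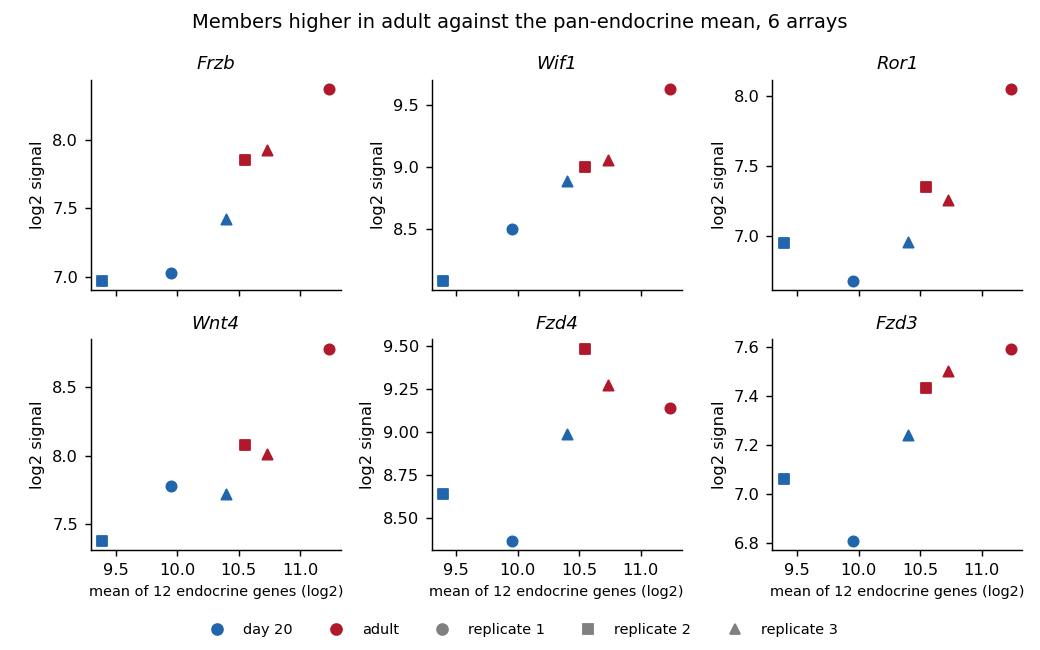
Log2 signal (y axis) of the 6 members higher in adult against the mean log2 signal of 12 endocrine genes (x axis), 1 point an array, adult in red and day 20 in blue. Adult replicate 1, at an endocrine mean of 11.24, is the highest point for all but Fzd4, and day 20 replicate 2, at 9.39, the lowest for Frzb, Wif1 and Wnt4.

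The 3 members that fell did so beside markers of several other cell types, endocrine ones included, and of dividing cells. Of 6 delta and PP cell markers 5 were lower and 0 higher in adult, with a mean of 7.49 to 7.68 over the adult and 8.55 to 9.14 over the day 20 arrays. Of 14 endothelial markers 12 were lower and 0 higher in adult, with a mean of 5.64 to 5.76 over the adult and 6.44 to 6.94 over the day 20 arrays. The log2 difference was -1.52 for Eng, -1.63 for Pecam1 and -1.63 for Cdh5, the brightest of the list. Of 15 fibroblast and stellate markers 8 were lower and 0 higher (6.19 to 6.36 against 6.87 to 7.10), with log2 differences of -2.81 for Vim and -2.21 for Sparc, and Acta2 not passing. All 11 cell division genes were lower (5.98 to 6.02 against 7.79 to 8.26). At or under the first quartile were 1 fibroblast and 2 leukocyte genes at each age and 1 endothelial gene in adult. Of the Schwann cell genes 1 was so in adult and 3 at day 20. Of 11 duct markers 3 were lower and 1 higher, with means of 8.25 to 8.34 against 8.42 to 8.80. Alpha cell markers overlapped between the ages (8.19 to 8.57 against 8.45 to 9.0), with 1 of 6 lower and 1 higher. Leukocyte and Schwann cell markers differed less, at 5.67 to 5.69 against 5.68 to 5.87 and 5.80 to 5.96 against 5.73 to 5.82. The part of these cells in the falls of Sfrp4, Fzd9 and Wnt5b was not tested. With the endocrine mean as a covariate their differences were -0.72 (95% interval -1.30 to -0.15), -0.21 (-0.53 to 0.11) and -0.40 (-0.77 to -0.03).

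**Figure D4:**
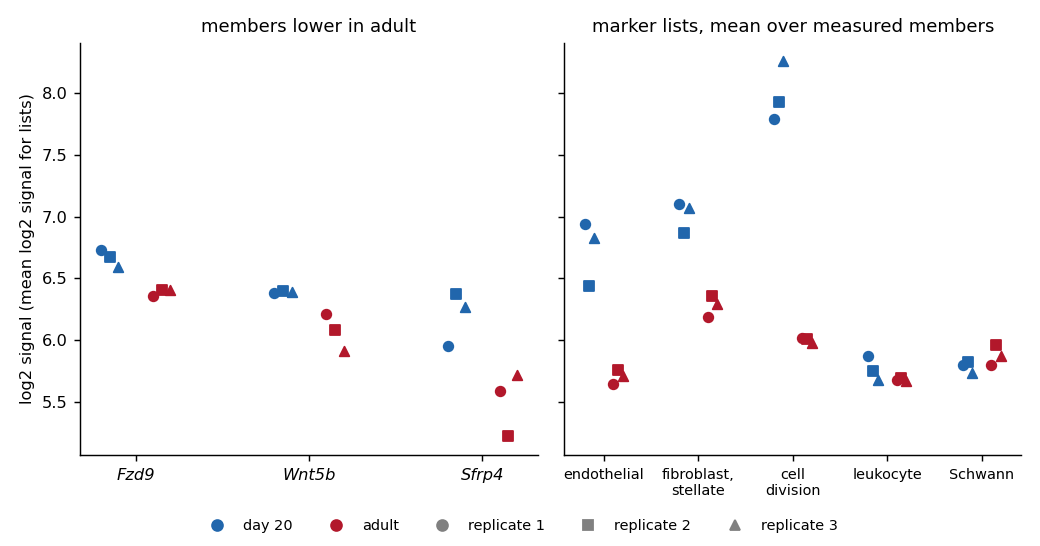
Left, log2 signals of the 3 members lower in adult; right, mean log2 signal of 5 marker lists, with each array as a point, adult in red and day 20 in blue. Endothelial, fibroblast and cell division means are lower in every adult array than in every day 20 array, as are Fzd9, Wnt5b and Sfrp4. The same held for the delta and PP cell and duct means, which are not plotted.

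The rest of the pathway was described from 6 lists with 88 measured genes outside the members, 5 of them in more than 1 list. Of these 15 were higher and 5 lower in adult (22.7%, the same share as over all genes), with a median difference of 0.10. Genes that release or hold Wnts at the cell surface included 2 rises and 1 fall among 7 measured (42.9%, against 22.7% of all genes). Wls, the carrier that brings Wnts to the plasma membrane, rose 1.67-fold, from 8.61 ± 0.08 at day 20 to 9.34 ± 0.17 in adult (n = 3, adjusted p = 0.0019). The proteoglycan Sdc4 rose 2.08-fold, from 10.27 ± 0.22 to 11.33 ± 0.09 (adjusted p = 0.00064). The glypican Gpc3 had a log2 difference of -0.36 (adjusted p = 0.046), and its call needed every array but adult replicate 2 (adjusted p up to 0.13 without one of them).

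Of 23 measured cytoplasmic transducers 7 were higher and 1, Nkd1, lower (34.8% called, against 22.7% of all genes). The higher count fell to 3 without adult replicate 1, day 20 replicate 1 or day 20 replicate 2, and to 4 without adult replicate 3. Ppp2r1a, the scaffold subunit of a protein phosphatase, rose 2.03-fold, from 10.75 ± 0.18 to 11.77 ± 0.17 (n = 3, adjusted p = 0.00077). Axin1, a scaffold of the beta-catenin destruction complex, rose 1.43-fold (adjusted p = 0.0043), the tankyrase Tnks2, which marks axins for breakdown, 1.41-fold (0.0031) and the ubiquitin ligase adaptor Btrc 1.44-fold (0.024). Apc and Gsk3b, core parts of the same complex singled out after their values were seen, did not pass, at differences of 0.32 (adjusted p = 0.077) and 0.20 (0.26). The remaining higher genes of the list were Csnk1a1 (0.39, adjusted p = 0.027), Csnk1g1 (0.37, 0.043) and Gsk3a (0.28, 0.037). For Btrc the adjusted p reached 0.085, with adult replicates 1 and 3 and day 20 replicates 1 and 2 each needed for the call. Ctnnb1, which encodes beta-catenin and was singled out after its values were seen, read 10.70 ± 0.02 in adult and 10.72 ± 0.05 at day 20 (95% interval of the difference -0.21 to 0.15).

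TCF/LEF factors and cofactors gave 0 calls among 13 measured by limma, against 22.7% of all genes called, and 1 unadjusted p under 0.05. There were also 0 with trend and robust variances, and 1 lower call when a gene's probe sets were averaged. Tcf7l2 was not among the genes tested, so these counts do not cover it. Of 24 measured genes of polarity and other non-canonical branches 5 were higher (3 without day 20 replicate 1) and 0 lower. That was 20.8% called, against 22.7% of all genes (11.8% higher). The median difference of the list was 0.25. Vangl1, a core planar polarity protein, rose 1.71-fold, from 6.99 ± 0.14 to 7.77 ± 0.13 (n = 3, adjusted p = 0.0015), and the calcium/calmodulin kinase subunit Camk2g 1.80-fold (adjusted p = 0.0013). Camk2b rose 1.88-fold (adjusted p = 0.017) and Daam1, a formin activated downstream of Dishevelled, 1.59-fold (0.042). The call of Camk2b was lost without adult replicate 1 or day 20 replicate 1, and that of Daam1 without any 1 day 20 array (adjusted p up to 0.055 and 0.12). The log2 difference of Daam1 was 0.40 without adult replicate 1, against 0.67 with all arrays. With the endocrine mean as a covariate that of Camk2b went from 0.91 to 0.13 (adjusted p = 0.69) and that of Daam1 to 0.15 (0.83), while Camk2g and Vangl1 kept 0.65 and 0.61 (adjusted p = 0.063 and 0.073).

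Target genes held 0 rises and 3 falls among 14 measured, a list that includes the members Axin2, Lgr5 and Dkk1. That was 21.4% called, all lower, against 22.7% of all genes called and 10.9% lower. The log2 difference was -0.41 for Cd44, an adhesion receptor, -0.40 for Tnfrsf19 and -0.31 for Nkd1, a feedback inhibitor that binds Dishevelled (adjusted p = 0.016, 0.022 and 0.033). Their adult means were 4.98, 6.33 and 5.48, and Cd44 and Nkd1 were outside the fit when genes of low signal were removed. The call of Cd44 needed adult replicate 2 and day 20 replicate 2, that of Tnfrsf19 adult replicates 1 and 3 and day 20 replicates 1 and 2, and that of Nkd1 every array but adult replicate 2 (adjusted p up to 0.059, 0.083 and 0.11). Of the 16 pathway genes chosen among called genes for their size of change, 9 kept their call whichever array was left out. That choice favours stable calls, and the share over all called genes was not counted. With the endocrine mean as a covariate 2 of the 16 kept theirs, Sdc4 and Ppp2r1a (adjusted p = 0.018 and 0.032). They were the only 2 of the 88 to pass, against 5.33% of all genes.

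**Figure D5:**
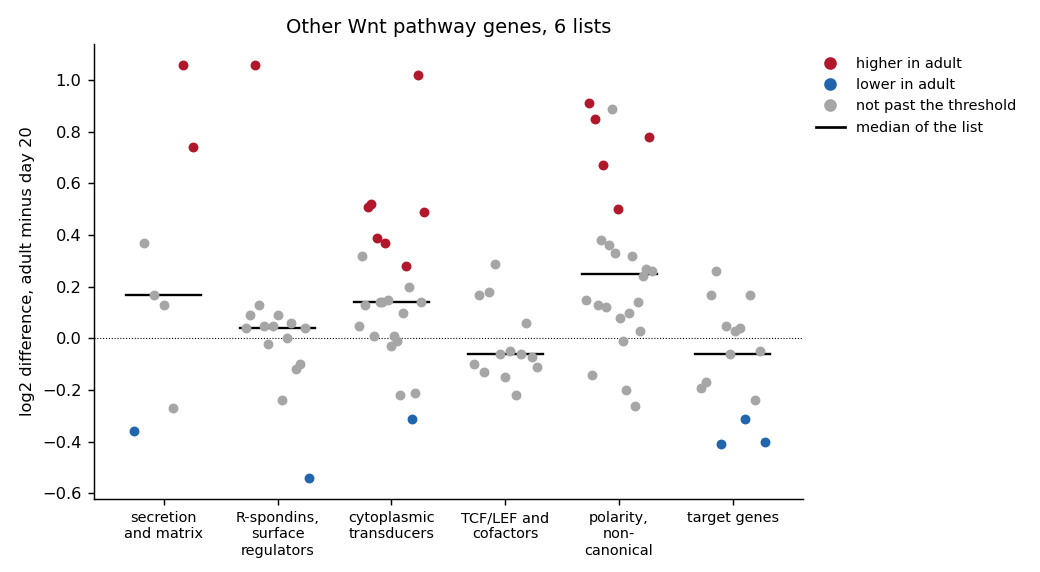
Log2 difference, adult minus day 20 (y axis), of the measured genes of 6 Wnt pathway lists, 1 point a gene, with the list's median as a bar. Red points passed as higher and blue as lower in adult; the TCF/LEF list has no coloured point, and the median is highest, at 0.25, for polarity and non-canonical genes.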

How the data were processed

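The authors deposited log2 signals of probe sets; the submitters' processing notes name RMA, which corrects background, quantile-normalizes arrays and summarises probes. The log2 scale was taken from the range, 1.73 to 14.71. Neither software nor annotation was given in the sources used here. The table held 0 columns of other series.

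Of 29214 probe sets 15310 had 1 gene symbol, 323 several and 13581 were unlisted. Symbols were updated through RefSeq, with none of the 42 members changed, and 1 probe set a gene (highest mean over the 6 arrays) gave 14506 genes. Every member was its gene's brightest probe set, so a fit over all probe sets with 1 symbol gave the same 6 and 3 calls.

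Adult was compared with day 20 by lmFit and eBayes of limma 3.58.1 (R 4.3.3) in two-sided tests, adjusted over all genes by Benjamini-Hochberg, with a threshold of 0.05 and no filter on low signal. Means carry the SD over 3 arrays, whose number limits precision. Values in every array are given for members past the threshold, those with a mean of at least 7 at either age, the Frizzled genes, Axin2, Lgr5, Lrp5 and Lrp6. Of each pathway list up to 4 called genes with the largest difference are named, besides Ctnnb1, Apc, Gsk3b and Ndp. The remaining higher transducers were named to stand beside Apc and Gsk3b. Members, lists, the endocrine mean and the alternatives were chosen with earlier results of these data known. Python 3.11.15 with pandas 2.3.3 and matplotlib 3.10.9 was used for tables and plots.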

Additional observations from a re-analysis of the deposited data

How the results depend on the processing

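Of 349 refits of 22 named members under the alternatives, 267 kept direction and side of the threshold, 62 lost a call and 20 changed sign. Only the 9 called members could lose a call, so all 62 losses were theirs. The 267 include refits of uncalled members and do not measure how stable the calls were. For members higher and lower in adult (6 and 3), the counts were 1 and 0 against a 1.2-fold null, 0 and 0 with the endocrine mean as a covariate, 2 and 0 without adult replicate 1 and day 20 replicate 2, and 1 to 5 and 0 to 2 with each array left out in turn. The lower count was 1 after a second quantile normalization. For all genes (1718 and 1576) the counts were 446 and 487, 307 and 466, 937 and 924, and 1065 to 1591 and 1076 to 1334 in the same order. For the other pathway genes (15 and 5) they were 5 and 0 against the 1.2-fold null and 2 and 0 with the covariate. With 1 array left out they were 9 to 16 and 1 to 4, and the lower count was 1 without both arrays and 3 with genes of low signal removed.

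A block for the replicate number gave 5 and 1 calls for members, 1384 and 1225 for all genes, and 3 for the other pathway genes that were lower. Under this block Ror1 (adjusted p = 0.063), Fzd9 (0.1) and Wnt5b (0.082) lost their calls, and 3 cytoplasmic transducers were called higher. Deviations of same-numbered arrays correlated at -0.187, 0.194 and -0.211 across genes. With 3 arrays an age these values do not settle whether the numbers pair the samples.

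Sign changes touched Wif1 (-0.05 with the covariate) and, apart from it, genes without a call, all of them members but Ndp. With the covariate these were Fzd5 (0.18), Fzd6 (-0.10), Wnt9b (0.08) and Ryk (-0.00), with array weights Wnt9a (0.02) and Wnt9b (0.03), and after a second quantile normalization Ryk (-0.01). Without adult replicate 1 and day 20 replicate 2 it was Fzd6 (-0.02). With 1 array left out, log2 differences ranged across 0, from -0.02 to 0.22 for Fzd6, -0.10 to 0.04 for Fzd8, -0.01 to 0.09 for Lgr5, -0.02 to 0.13 for Lrp5, -0.00 to 0.13 for Lrp6, -0.06 to 0.14 for Ryk, -0.19 to 0.06 for Wnt9a, -0.08 to 0.09 for Wnt9b and -0.02 to 0.13 for Ndp. The cause of these changes was not tested. The share of member promoters with a TCF/LEF core was 10.7% over both the 300 bases and the 250 before the start.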

Other observations

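Parts of 1 receptor complex differed in direction, which was not tested as a contrast. Fzd4 binds the ligand Norrin together with Lrp5 and the tetraspanin Tspan12. Fzd4 was 1.55-fold higher in adult (adjusted p = 0.022), a call kept in only 2 of 6 fits with 1 array left out (adjusted p up to 0.072). Tspan12 fell by 0.54 on the log2 scale (adjusted p = 0.0031). Its arrays read 10.02, 10.01 and 9.97 in adult and 10.51, 10.66 and 10.46 at day 20, without overlap, and the call was kept whichever array was left out. Lrp5 had a difference of 0.05 (95% interval -0.18 to 0.29). Ndp, the gene of Norrin, singled out after its values were seen, lay below the first quartile at both ages (4.76 ± 0.15 and 4.71 ± 0.10). Endothelial cells are known for this complex, and their markers were lower in adult, with a mean of 5.71 ± 0.06 against 6.73 ± 0.26 (SD, n = 3). Their part in the fall of Tspan12 was not tested.

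Kremen1, a receptor of Dkk proteins, rose 2.09-fold, from 7.14 ± 0.47 at day 20 to 8.21 ± 0.38 in adult (n = 3, adjusted p = 0.015), and kept its call whichever array was left out. With the endocrine mean as a covariate its difference was 0.18 (adjusted p = 0.61), and that of Tspan12 was -0.43 (adjusted p = 0.13). Kremen1 and Tspan12 were the 2 called genes among 15 measured R-spondins and surface regulators (13.3%, against 22.7% of all genes). None of the 4 measured Dkk genes passed.

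The antagonist Sfrp2 was the member with the smallest unadjusted p under the endocrine covariate (0.008), with a difference of 0.69 that did not pass after adjustment (adjusted p = 0.092). Its arrays read 5.0, 5.14 and 5.29 in adult and 4.70, 5.40 and 4.75 at day 20, and without the covariate its difference was 0.19 (adjusted p = 0.51). The day 20 mean of 4.95 lay near the first quartile. Day 20 replicate 2, the highest array of Sfrp2, had the lowest endocrine mean (9.39). In the covariate fit of limma 19.9% of all genes had an unadjusted p under 0.05, and that fit cannot separate age from the endocrine mean.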
